A study of Mus musculus with 4 samples.

Results

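The genes examined here were 26 genes of cholesterol synthesis and sterol regulation, listed by symbol from knowledge of the pathway, with earlier results of these data known. All 26 were among the 24322 gene symbols in the deposited expression files, and all 26 had a mean of at least 1 FPKM (sequenced fragments divided by exon length and by the mapped total of the library) over the libraries, as did 12363 symbols in all, which were the ones tested. RNA-seq was carried out on 4 samples of sorted retinal cells, each taken from a mouse retina dissociated with papain and selected for fluorescence of the reporter mTFP. The 2 control libraries (mice 7984 and 3911) came from *Rax* flox/WT mice carrying Rlbp1-CreERT2 and the R26-CAG-LoxP-mTFP1 reporter, and the 2 *Rax* iCKO libraries (mice 7983 and 3914) from *Rax* flox/flox mice with the same transgenes. Every mouse, controls included, received tamoxifen at postnatal day 4 and was harvested at day 14, on a background labelled 129S6 (129 Sv/Ev in the study's methods). The controls carried 1 floxed copy of *Rax*, which the Cre could delete there too. The Cre was driven by a fragment of the promoter of *Rlbp1*, a gene of Müller glia and of the retinal pigment epithelium, so the sort selected cells in which that fragment had been active. The labels do not say which mice were littermates or were processed together. Mouse numbers fall into a run beginning with 79 (7983 and 7984) and a run beginning with 39 (3911 and 3914), each with 1 mouse of either genotype, and differences within these runs are given beside the pooled ones.

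Cholesterol is built in the cell from acetyl-CoA. Acetyl-CoA is condensed and reduced to mevalonate, mevalonate is phosphorylated and decarboxylated to isoprenoid units, and these are joined to squalene, which is closed to lanosterol and trimmed to cholesterol. The supply is kept constant by feedback: when membrane sterol is low, the escort protein SCAP carries the SREBP transcription factors to the Golgi, where they are cleaved and go on to activate most genes of the pathway, and when sterol is high, INSIG proteins hold SCAP in the endoplasmic reticulum. Because the genes share this control, they often move together. Müller glia span the retina from the vitreous to the photoreceptors and take part in its lipid supply, since the neural retina lies behind a blood barrier.

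Promoters are shown for *Msmo1* and *Insig1*, which had the largest differences between the genotypes, and for *Hmgcs1*, which had the smallest. They are the 250 bases before and the 50 bases after the RefSeq start (GRCm38.p6), 5′ to 3′ along the gene, and capitals mark the sterol regulatory element TCACNCCAC, the CCAAT box and the homeodomain core TAATT wherever these letters occur on either strand. *Msmo1* lies at chr8:64733529-64733828 on the minus strand, *Insig1* at chr5:28071162-28071461 on the plus strand and *Hmgcs1* at chr13:119690101-119690400 on the plus strand.
Msmo1: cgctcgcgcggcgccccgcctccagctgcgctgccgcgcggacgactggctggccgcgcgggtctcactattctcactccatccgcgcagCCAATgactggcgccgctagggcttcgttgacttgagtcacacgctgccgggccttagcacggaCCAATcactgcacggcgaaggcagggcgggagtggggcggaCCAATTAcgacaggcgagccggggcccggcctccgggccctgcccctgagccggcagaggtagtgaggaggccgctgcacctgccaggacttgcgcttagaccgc
Insig1: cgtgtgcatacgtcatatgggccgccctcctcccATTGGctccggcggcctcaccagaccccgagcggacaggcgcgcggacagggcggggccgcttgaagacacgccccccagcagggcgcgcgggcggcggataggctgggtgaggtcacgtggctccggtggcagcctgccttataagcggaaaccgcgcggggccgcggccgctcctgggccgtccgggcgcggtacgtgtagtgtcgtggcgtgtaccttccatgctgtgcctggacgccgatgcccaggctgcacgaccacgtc
Hmgcs1: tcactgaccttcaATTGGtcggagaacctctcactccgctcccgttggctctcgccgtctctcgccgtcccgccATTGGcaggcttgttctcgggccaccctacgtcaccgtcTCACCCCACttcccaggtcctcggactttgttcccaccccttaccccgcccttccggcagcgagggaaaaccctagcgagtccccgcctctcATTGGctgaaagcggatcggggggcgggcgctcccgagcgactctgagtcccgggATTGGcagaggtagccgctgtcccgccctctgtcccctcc

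In the *Msmo1* promoter, CCAAT began at positions -160, -96 and -55 from the start, and the last of these overlapped by 3 bases with TAATT on the other strand, at -53. The *Insig1* promoter held 1 CCAAT, on the other strand at -216. The *Hmgcs1* promoter held the sterol regulatory element at -137 and 4 reverse CCAAT boxes, at -237, -176, -45 and 11. RefSeq promoters were found for 21 of the 26 genes (29 promoters), but not for *Fdft1*, *Sqle*, *Fdps*, *Stard4* and *Npc1*. CCAAT was present for 19 of these 21 genes and in 20 of their 29 promoters, against 37.4% of all 32851 promoters of this length. GGGCGG, the GC box, was present for 20 genes and in 24 promoters, against 35.7% of all promoters. TCACNCCAC was found in 1 of the 29 (*Hmgcs1*), against 1.24%, and TAATT in 4 (*Pmvk*, *Idi1*, *Msmo1* and *Ebp*), against 27.0%. These are matches of letters in a short window and not measured binding sites. Only 1 pattern stood for the sterol regulatory element, so a missing match does not show that a gene lacks such an element.

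Before the pathway, the targeted gene was examined. *Rax*, the homeobox gene deleted in the iCKO mice, measured 189.1 and 181.4 FPKM in controls 7984 and 3911 and 111.4 and 98.4 FPKM in *Rax* iCKO 7983 and 3914. The groups did not overlap, with a log2 fold change of -0.82 ± 0.21 (SE; 95% interval -1.34 to -0.30; adjusted p = 0.9999, limma) and differences of -0.76 and -0.88 within the 79 and 39 runs. With the number run as a block in the fit, the adjusted p of *Rax* was 0.0223 (limma). *Rax* transcripts thus remained at a measurable level in both iCKO libraries, although FPKM sums over all exons, including any that the deletion leaves. The number of mapped reads, estimated from the smallest steps of the FPKM values, was 12700000 in control 7984 and between 9260000 and 9420000 in the others. Libraries of the same number run correlated at r = 0.970 across genes, and libraries of different runs at 0.947 to 0.955. The sorted cells carried the markers of Müller glia: *Rlbp1*, the retinaldehyde-binding protein, measured 1292 to 2616 FPKM, and *Glul*, glutamine synthetase, 1002 to 1702 FPKM. They also carried abundant bipolar cell RNA, with *Pcp2* at 2071 to 6515 FPKM *Grm6* at 156.0 to 233.0 FPKM and *Trpm1* at 178.4 to 327.3 FPKM, so the pathway's values below belong to a mixture. In such bulk samples fewer cells of a type and less RNA per cell cannot be told apart. Pigment epithelium markers were near 0, at a summed 7.90 to 11.6 FPKM, with *Mlana* at 0 in every library.

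None of the 26 genes passed the test between *Rax* iCKO and control cells, but nearly all of the estimates pointed to a lower level in *Rax* iCKO. In limma with Benjamini-Hochberg adjustment over all 12363 symbols, 0 of the 26 had an adjusted p under 0.05, where 3 symbols (0.0243%) did in the whole table, and 0 had an unadjusted p under 0.05, where 2.86% of all symbols did. With the number run as a block in limma, 5 of the 26 had an unadjusted p under 0.05, against 15.7% of all symbols. In that fit 0 of the 26 had an adjusted p under 0.05, against 0.574%. The fold change was below 0 for 23 of the 26, against 50.8% of all symbols. Its median was -0.23 (range -0.72 for *Msmo1* to 0.32 for *Lss*), against -0.00444 over all symbols tested. In 8 genes the values of *Rax* iCKO were all below those of the controls (*Mvk*, *Fdft1*, *Sqle*, *Cyp51*, *Msmo1*, *Nsdhl*, *Srebf1* and *Npc2*), against 14.1% of all symbols, and in 1 gene (*Insig2*) all were above, against 15.4%. With 1 library left out, fewer values had to be ordered and more of all symbols separated. The genes below then numbered 13 without control 7984 (35.3% of all symbols), 17 without control 3911 (33.3%), 18 without *Rax* iCKO 7983 (29.1%) and 12 without *Rax* iCKO 3914 (31.3%), and 2 or 3 lay above, against 29.7% to 35.0% of all symbols. The 26 genes were measured in the same mice and share much of their control, so these counts are not made of independent observations. The genotypes had 2 mice each, the standard errors ran from 0.20 to 0.38 on the log2 scale, and an exact permutation test of a single gene cannot give a p below 0.333 here. The same fit gave *Rax*, the deleted gene, an unadjusted p of 0.00859 and an adjusted p of 0.9999 (limma). A gene that did not pass is therefore not shown to be unchanged.

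**Figure D1:**
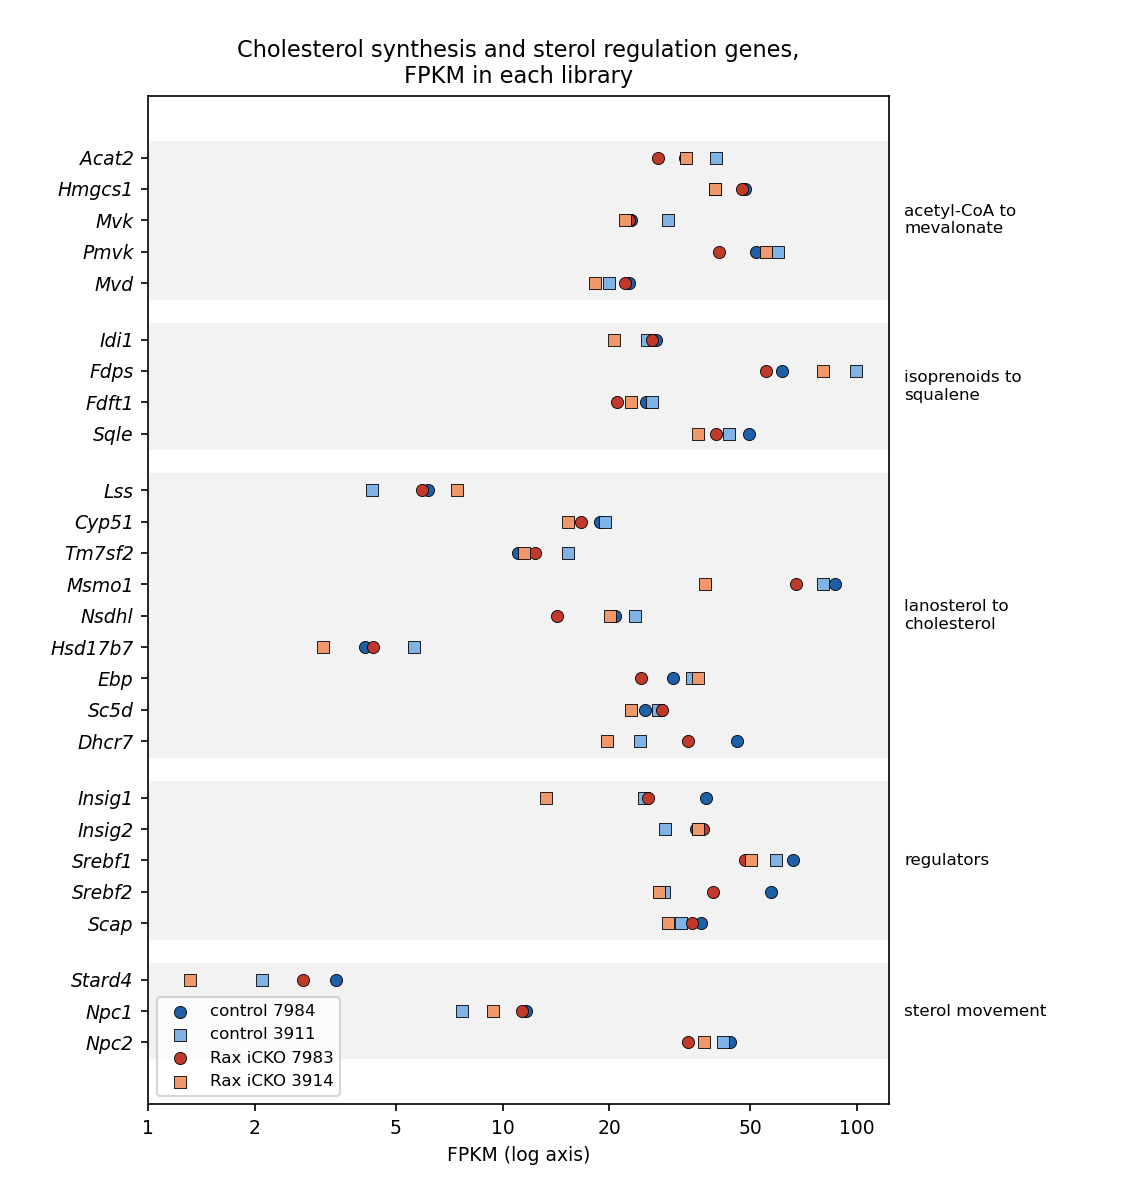
FPKM on a log axis (horizontal) of each of the 26 genes (vertical, grouped by step of the pathway) in the 4 libraries, with controls in blue and *Rax* iCKO in red and orange, and the 79 run as circles and the 39 run as squares. The genes spread from *Stard4* at 1.31 to 3.38 FPKM to *Fdps* at 55.4 to 99.4 FPKM, and *Rax* iCKO 3914 is the lowest point in 14 of the 26 rows.

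The pathway was well expressed. The mean FPKM of the 26 genes had a median of 28.4, against 12.8 over all symbols tested. *Fdps*, which makes farnesyl diphosphate, was the highest at a mean of 74.1 FPKM, followed by *Msmo1* at 67.8 and *Srebf1* at 55.9 FPKM, and the lowest were *Lss* at 5.96, *Hsd17b7* at 4.29 and *Stard4* at 2.38 FPKM. All values are per length of transcript, so these levels may be set beside each other. *Fdps* and *Msmo1* are close in their means, but each ranged over libraries by more than the gap between them (*Fdps* 55.4 to 99.4 FPKM, *Msmo1* 37.2 to 86.6 FPKM), so their order does not stand beyond this spread.

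In the first steps, from acetyl-CoA to phosphorylated mevalonate, the 5 genes had fold changes of -0.26 to -0.02, with a median of -0.20. *Acat2*, the cytosolic thiolase that joins 2 acetyl-CoA, measured 32.7 and 40.1 FPKM in controls 7984 and 3911 and 27.5 and 32.9 FPKM in *Rax* iCKO 7983 and 3914, the order in which the values of every gene below are given. *Hmgcs1*, which adds the third acetyl unit, was at 48.5 and 39.8 FPKM and 47.5 and 39.7 FPKM. *Hmgcs1* thus differed between the number runs and hardly between the genotypes, with a log2 fold change of -0.02 ± 0.22 (SE; 95% interval -0.56 to 0.52). *Mvk*, mevalonate kinase, measured 23.0 and 29.4 FPKM against 22.7 and 22.2 FPKM. Its groups did not overlap, but control 7984 lay next to the *Rax* iCKO libraries and only control 3911 stood apart, and the difference was -0.02 within the 79 run and -0.39 within the 39 run. *Pmvk*, phosphomevalonate kinase, was at 51.9 and 59.8 FPKM and 40.9 and 55.3 FPKM. *Mvd*, the decarboxylase that yields isopentenyl diphosphate, measured 22.8 and 20.02 FPKM and 22.2 and 18.3 FPKM. In *Acat2*, *Pmvk* and *Mvd* the groups overlapped, although *Rax* iCKO was the lower mouse of its run in each.

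The 4 genes from isoprenoids to squalene epoxide had a median fold change of -0.23, and all 4 were lower in *Rax* iCKO within both runs. *Idi1*, the isomerase of isopentenyl diphosphate, measured 27.1 and 25.6 FPKM in controls and 26.5 and 20.7 FPKM in *Rax* iCKO, so that 3 libraries were alike and 3914 was low. *Fdps* was at 61.5 and 99.4 FPKM and 55.4 and 80.0 FPKM, a spread that followed the number runs, with both mice of the 39 run above both of the 79 run. *Fdft1*, squalene synthase, which commits farnesyl diphosphate to sterols, measured 25.4 and 26.4 FPKM and 21.0 and 23.0 FPKM. Its controls were close together and above both *Rax* iCKO libraries, with a fold change of -0.23 ± 0.20 (SE). Exons of *Fdft1* share 774 bases with those of *Ctsb* on the opposite strand, and without strand information reads from the pair cannot be told apart. *Sqle*, squalene epoxidase, which catalyses a slow step of the pathway, measured 49.6 and 43.7 FPKM and 39.9 and 35.6 FPKM. *Sqle* groups did not overlap either, and the differences of -0.31 and -0.29 within the runs were alike, with a pooled fold change of -0.30 ± 0.20 (SE; 95% interval -0.80 to 0.20; adjusted p = 0.9999, limma).

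The 9 genes from lanosterol to cholesterol included both the largest difference in the pathway and its largest estimate upward. *Msmo1*, the methylsterol monooxygenase that removes methyl groups from carbon 4 of the sterol, measured 86.6 and 80.2 FPKM in controls and 67.3 and 37.2 FPKM in *Rax* iCKO. The controls were close together and both *Rax* iCKO libraries lay below them, 3914 far below. The means were 83.4 ± 4.50 and 52.3 ± 21.3 FPKM (SD, n = 2 each), a ratio of 0.627, and the log2 fold change was -0.72 ± 0.31 (SE; 95% interval -1.48 to 0.04; unadjusted p = 0.0585 and adjusted p = 0.9999, limma). The difference was -0.36 within the 79 run and -1.09 within the 39 run, and the fold change was -0.30 without *Rax* iCKO 3914 and -1.14 without *Rax* iCKO 7983. With the number run as a block, *Msmo1* had an unadjusted p of 0.0011 and an adjusted p of 0.0775 (limma). *Msmo1* lies on chromosome 8, and its lowest value rested on an estimated 640 reads.

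*Nsdhl* and *Hsd17b7* act with *Msmo1* in the same demethylation. *Nsdhl*, the decarboxylating dehydrogenase encoded on the X chromosome, measured 20.8 and 23.7 FPKM in controls and 14.2 and 20.1 FPKM in *Rax* iCKO. Here too the groups did not overlap, but *Rax* iCKO 7983 was the lowest and 3914 lay near control 7984, the reverse of *Msmo1*. *Hsd17b7*, the ketoreductase, was at 4.09 and 5.64 FPKM and 4.31 and 3.11 FPKM, with opposite signs in the runs (0.06 and -0.69). *Cyp51*, the lanosterol demethylase that precedes these enzymes, measured 18.8 and 19.5 FPKM and 16.7 and 15.3 FPKM, with no overlap of the groups and a fold change of -0.25 ± 0.21 (SE). *Lss*, lanosterol synthase, which closes squalene epoxide to lanosterol, was at 6.16 and 4.27 FPKM and 5.94 and 7.46 FPKM. The fold change of 0.32 ± 0.28 (SE) for *Lss* came from the 39 run alone, at 0.68 against -0.04 in the 79 run. Exons of *Lss* share 381 bases with *4930483K19Rik*, and exons of *Cyp51* 166 bases with *Akap9*, each on the opposite strand.

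The remaining enzymes of the branch had overlapping groups. *Tm7sf2*, a sterol reductase, measured 11.1 and 15.3 FPKM in controls and 12.3 and 11.5 FPKM in *Rax* iCKO. *Ebp*, a sterol isomerase on the X chromosome, was at 30.2 and 34.2 FPKM and 24.7 and 35.6 FPKM, and *Sc5d*, a desaturase, at 25.3 and 27.5 FPKM and 28.2 and 23.1 FPKM. In each of the 3 the difference changed sign between the runs (*Tm7sf2* 0.15 and -0.38, *Ebp* -0.28 and 0.05, *Sc5d* 0.15 and -0.24). Exons of *Tm7sf2* share 532 bases with *Vps51* on the same strand. *Dhcr7*, which makes cholesterol from its direct precursor, measured 46.0 and 24.4 FPKM and 33.3 and 19.7 FPKM. *Dhcr7* was highest in control 7984 and lower in *Rax* iCKO within both runs (-0.45 and -0.29), but its controls differed from each other by more than the genotypes did, and its standard error of 0.38 was the largest of the 26 genes.

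**Figure D2:**
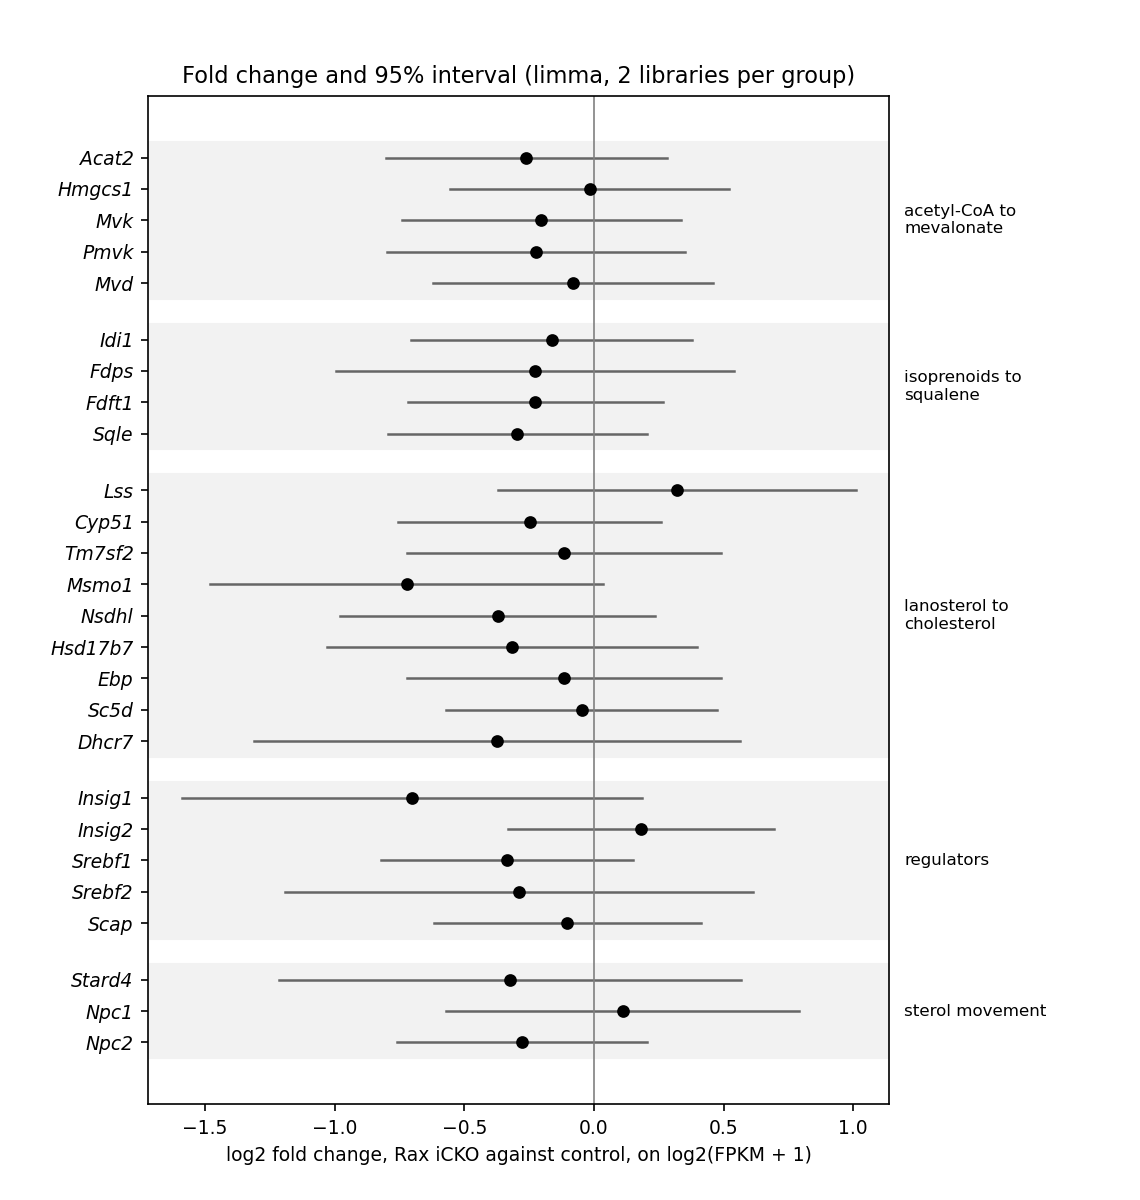
Log2 fold change of *Rax* iCKO against control on log2(FPKM + 1) (horizontal) for the 26 genes (vertical), with bars for the 95% interval from limma over 2 libraries per group. All 26 intervals include 0, 23 points lie to its left, and *Msmo1* at -0.72 and *Insig1* at -0.70 lie farthest.

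Among the 5 regulators the median fold change was -0.29. *Insig1*, which holds SCAP in the endoplasmic reticulum and is itself a target of the SREBPs, measured 37.6 and 25.1 FPKM in controls and 25.7 and 13.3 FPKM in *Rax* iCKO. The groups overlapped, with control 3911 just below *Rax* iCKO 7983, while 7984 was the highest library and 3914 the lowest. The means were 31.4 ± 8.82 and 19.5 ± 8.75 FPKM (SD, n = 2 each), a ratio of 0.621, with a log2 fold change of -0.70 ± 0.36 (SE; 95% interval -1.59 to 0.18; unadjusted p = 0.101 and adjusted p = 0.9999, limma). *Rax* iCKO was lower by -0.53 in the 79 run and -0.87 in the 39 run, and the highest library was 2.83 times the lowest, the widest range of the 26 genes. The fold change of *Insig1* was -0.25 without *Rax* iCKO 3914, -1.15 without *Rax* iCKO 7983, -0.42 without control 7984 and -0.98 without control 3911. With the number run as a block, its unadjusted p was 0.0008 and its adjusted p 0.0694 (limma).

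*Insig2*, the other INSIG gene, which is not driven by the SREBPs in the same way, measured 35.2 and 28.7 FPKM in controls and 36.8 and 35.6 FPKM in *Rax* iCKO. It was the only one of the 26 that was higher in *Rax* iCKO within both runs (0.06 and 0.30), where 30.7% of all symbols were, with a fold change of 0.18 ± 0.21 (SE; 95% interval -0.33 to 0.69), which was 0.040 without control 3911 and 0.32 without control 7984. Control 7984 and both *Rax* iCKO libraries were alike in *Insig2*, and control 3911 was low. *Srebf1*, which encodes SREBP-1, the family member that mainly drives fatty acid synthesis, was at 66.0 and 59.0 FPKM and 48.2 and 50.3 FPKM. Both controls lay above both *Rax* iCKO libraries, with means of 62.5 ± 4.97 and 49.2 ± 1.49 FPKM (SD, n = 2 each) and a fold change of -0.34 ± 0.20 (SE; 95% interval -0.82 to 0.15). *Srebf1* exons share 109 bases with *Rai1* on the opposite strand. *Srebf2*, which encodes SREBP-2, the main activator of cholesterol synthesis, measured 57.3 and 28.6 FPKM and 39.4 and 27.6 FPKM. Here control 7984 stood above the other libraries, and the difference was -0.53 within the 79 run and -0.05 within the 39 run. *Mir33*, the micro-RNA gene in an intron of *Srebf2*, was listed at 0 in all 4 libraries. *Scap* was at 36.4 and 31.96 FPKM and 34.3 and 29.2 FPKM, with a fold change of -0.10 ± 0.21 (SE).

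The 3 genes of sterol movement gave a mixed picture. *Npc2*, the soluble lysosomal protein that hands cholesterol to NPC1, measured 43.9 and 41.8 FPKM in controls and 33.4 and 37.0 FPKM in *Rax* iCKO, without overlap, and its fold change was -0.28 ± 0.20 (SE; 95% interval -0.76 to 0.21). *Npc1*, the membrane protein that exports cholesterol from lysosomes, was at 11.6 and 7.69 FPKM and 11.3 and 9.38 FPKM, and the partner genes therefore did not share a pattern over the libraries. *Stard4*, a carrier of sterol between membranes, measured 3.38 and 2.09 FPKM and 2.74 and 1.31 FPKM, with differences of -0.23 and -0.42 within the runs. Its lowest value rested on about 60 reads, the fewest of the 26 genes.

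Within the runs the direction was mostly shared. *Rax* iCKO was the lower mouse in both runs for 19 of the 26 genes, against 31.7% of all symbols, and the higher mouse in both for 1. The median difference over the 26 genes was -0.20 in the 79 run and -0.24 in the 39 run, where over all symbols it was -0.00865 and 0.00179. The 2 runs were not a repeat of each other gene by gene. *Nsdhl*, *Srebf2* and *Insig1* had the largest downward differences in the 79 run (-0.52, -0.53 and -0.53), and *Msmo1*, *Insig1* and *Hsd17b7* in the 39 run (-1.09, -0.87 and -0.69), so that *Insig1* alone was among the 3 largest in both.

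**Figure D3:**
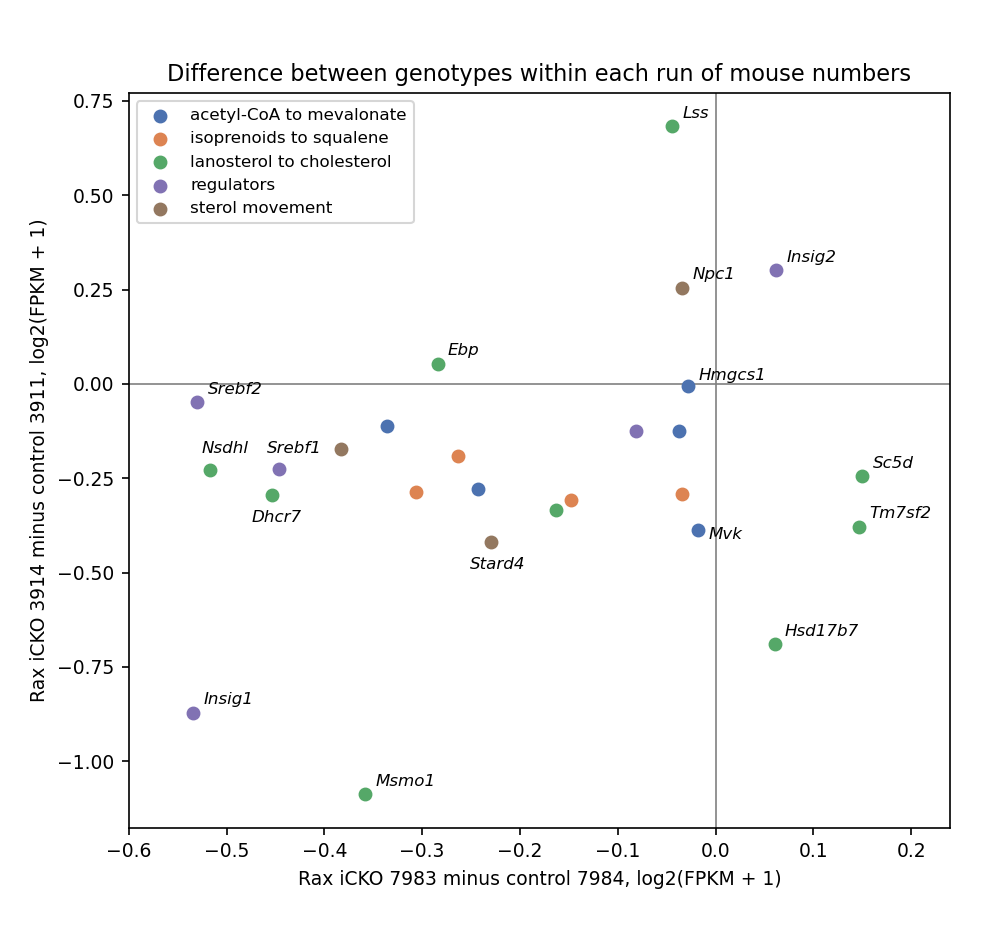
Difference of *Rax* iCKO from control in log2(FPKM + 1) within the 79 run (horizontal, 7983 minus 7984) and within the 39 run (vertical, 3914 minus 3911), with 1 point for each of the 26 genes, coloured by step of the pathway. The lower left quadrant holds 19 genes and the upper right quadrant holds *Insig2* alone.

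Whether the pathway moved as a block in any single library was examined by setting each gene against its own mean over the 4 libraries. *Rax* iCKO 3914 was the library with the lowest pathway. It held the lowest value of the 4 for 14 of the 26 genes (*Hmgcs1*, *Mvk*, *Mvd*, *Idi1*, *Sqle*, *Cyp51*, *Msmo1*, *Hsd17b7*, *Sc5d*, *Dhcr7*, *Insig1*, *Srebf2*, *Scap* and *Stard4*), where 22.1% of all symbols were lowest there, and 20 of the 26 were below their own mean, as were 5924 of all 12363 symbols. The median deviation of the 26 genes in 3914 was -0.14 on the log2 scale, against 0.01 for all symbols. Control 7984 was at the other end, with a median deviation of 0.11 and the highest value for 13 of the 26 genes, where 26% of all symbols were highest there. Control 3911 had a median deviation of 0.09, which was 0.036 without *Rax* iCKO 3914, 0.055 without *Rax* iCKO 7983 and 0.15 without control 7984. With the libraries scaled to equal medians, control 3911 lay above control 7984 (0.14 and 0.075), so the order of the controls depended on the scaling. *Rax* iCKO 7983 had a median deviation of 0.02, which was -0.11 without *Rax* iCKO 3914. It nonetheless held the lowest value for 8 genes (*Acat2*, *Pmvk*, *Fdps*, *Fdft1*, *Nsdhl*, *Ebp*, *Srebf1* and *Npc2*), against 24.2% of all symbols, so that 22 of the 26 had their lowest value in a *Rax* iCKO library.

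**Figure D4:**
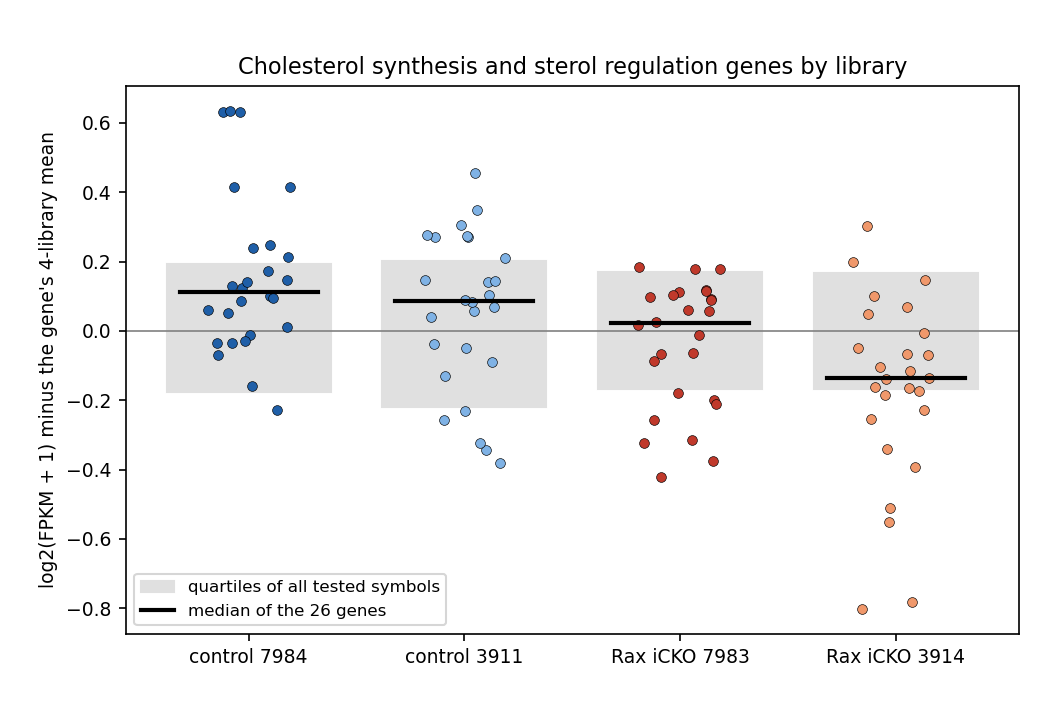
Deviation of log2(FPKM + 1) from the gene's mean over the 4 libraries (vertical) for the 26 genes (points) in each library (horizontal), with the median of the 26 as a black line and the quartiles of all 12363 symbols as a grey box. The median falls from 0.11 in control 7984 to -0.14 in *Rax* iCKO 3914, while most points stay within or near the grey boxes.

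The deviations were thus mostly small, with a direction shared by many genes but not by every gene. The median of the 26 in *Rax* iCKO 3914 (-0.14) lay within the quartiles of all symbols there (-0.17 to 0.17). Whether the 26 genes moved as a group was not tested, and genes measured in the same mice are not independent. In *Rax* iCKO 3914 the genes farthest below their means were *Insig1* (-0.80), *Msmo1* (-0.78), *Dhcr7* (-0.55) and *Stard4* (-0.51) on the log2 scale. *Lss* was higher there than in any other library, as was *Ebp*. A group of 8 genes (*Hmgcs1*, *Mvd*, *Idi1*, *Dhcr7*, *Insig1*, *Srebf2*, *Scap* and *Stard4*), singled out after the values were seen, shared 1 order of libraries, rising from *Rax* iCKO 3914 through control 3911 and *Rax* iCKO 7983 to control 7984, an order found in 7.85% of all symbols. This order was picked because it was the commonest among the 26 genes, so its count there cannot be weighed against that share. That order puts the number runs apart and *Rax* iCKO below control within each. With *Npc1*, 9 genes had both mice of the 79 run above both of the 39 run, against 26.8% of all symbols, and 4 (*Acat2*, *Pmvk*, *Fdps* and *Ebp*) had both below, against 29.1%.

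Other gene groups differed between the same libraries. The 14 Müller glia markers had a median deviation of 0.45 in control 7984, -0.10 in control 3911, -0.08 in *Rax* iCKO 7983 and -0.27 in *Rax* iCKO 3914. All 14 were highest in 7984 and 9 of the 14 were lowest in 3914, and their summed level was 18083 FPKM in 7984 and 12148 to 13870 FPKM in the others. The immediate early genes, which papain dissociation is known to induce, had medians of 0.55, 0.17, -0.19 and -0.45 in the same order over the 11 of 12 that were tested. The rod markers had medians of 0.31, 0.22, -0.09 and -0.52, with a summed 1796 and 1761 FPKM in controls and 1235 and 1048 FPKM in *Rax* iCKO. The 8 bipolar cell markers went the other way in 7984, with medians of -0.51, 0.09, 0.07 and 0.29 and sums of 5072, 11618, 6894 and 9676 FPKM. Astrocyte markers, 5 of which were tested, had medians of 0.40, 0.29, -0.32 and -0.42. Microglia markers summed to 52.3, 62.5, 89.7 and 17.7 FPKM, with a median of -1.10 in *Rax* iCKO 3914, where all 9 were lowest, and the 6 tested amacrine and ganglion cell markers had a median of -0.45 there. The 6 tested cone markers, with medians of -0.11, 0.11, -0.16 and 0.11, and the 3 tested endothelium markers, with 0.47, -0.41, 0.18 and -0.24, were not lowest in *Rax* iCKO 3914. The 3 tested pigment epithelium markers, all at low levels, had medians of 0.16, -0.06, 0.36 and -0.26. In the astrocyte list 3 of the 5 tested genes were lowest in *Rax* iCKO 3914, while *Gfap* and *S100b* were not. Control 7984 thus had the most Müller glia and immediate early RNA. The lowest medians of the Müller glia, rod, immediate early, astrocyte, microglia, pigment epithelium and amacrine and ganglion lists were in *Rax* iCKO 3914. The part of these lists in the differences of the pathway between libraries was not tested.

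**Figure D5:**
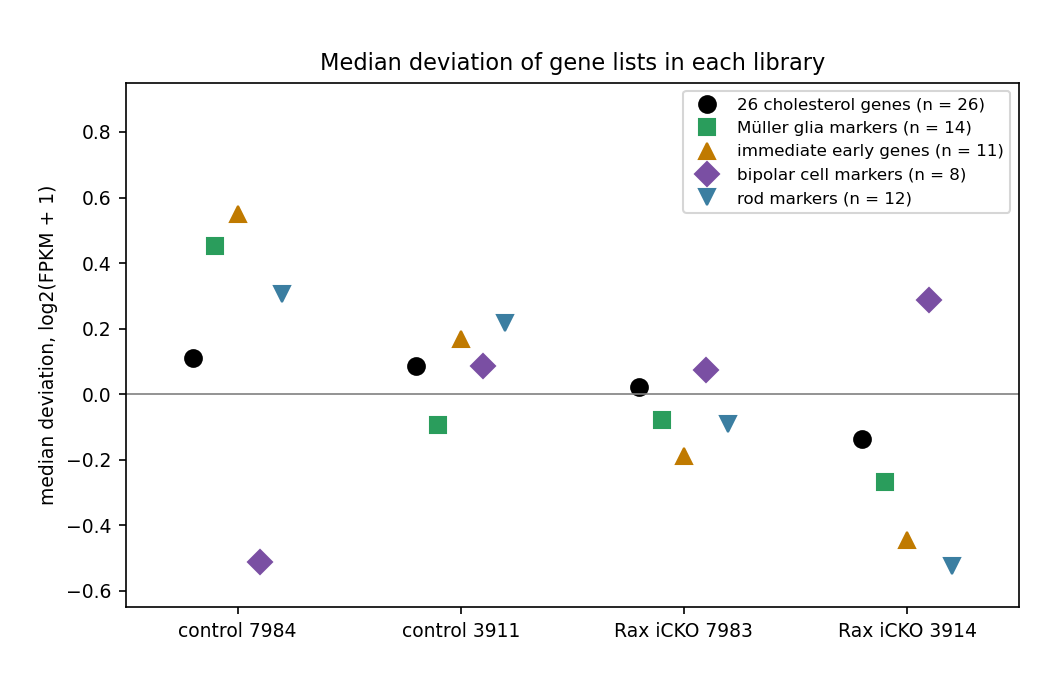
Median deviation of log2(FPKM + 1) from each gene's mean over the 4 libraries (vertical) for 5 gene lists in each library (horizontal), with list sizes in the legend. The Müller glia, immediate early and rod lists are highest in control 7984 and lowest in *Rax* iCKO 3914, and the 26 cholesterol genes span less (0.11 in 7984 to -0.14 in 3914, with control 3911 the highest under equal medians). The bipolar list has its lowest value in 7984.

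Neighbouring parts of sterol metabolism, listed from background knowledge, had median fold changes near or above 0. Of 12 tested genes for SREBP processing and sterol sensing, 0 passed in either direction in limma at an adjusted or unadjusted p under 0.05, and the median fold change was 0.02. An unadjusted p under 0.05 was reached by 1 after quantile normalization (3.30% of all symbols) and by 1 with the number run as a block (15.7% of all symbols). *Rnf145*, a ubiquitin ligase of the endoplasmic reticulum that acts in sterol control, was the only gene of this list with groups that did not overlap, at 123.5 and 107.4 FPKM in controls and 153.2 and 161.3 FPKM in *Rax* iCKO (log2 fold change 0.45 ± 0.22 SE), where 15.4% of all symbols separated upward and 14.1% downward. Of 13 genes in the branches that leave the pathway at farnesyl diphosphate, again 0 passed at either threshold, with a median of -0.02. With the number run as a block 2 had an unadjusted p under 0.05, and without control 3911 1 had (15.7% and 3.52% of all symbols). In this list *Coq2*, of ubiquinone synthesis, was at 30.6 and 37.9 FPKM and 40.8 and 50.6 FPKM, and *Rabggta*, of Rab prenylation, at 18.4 and 17.4 FPKM and 22.1 and 24.8 FPKM, each higher in both *Rax* iCKO libraries.

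The fatty acid synthesis targets of SREBP-1 likewise held 0 of 15 tested genes past either threshold and a median fold change of 0.05. With the number run as a block 2 of them had an unadjusted p under 0.05, against 15.7% of all symbols. Within it *Me1*, malic enzyme, measured 10.3 and 10.3 FPKM in controls and 8.52 and 6.32 FPKM in *Rax* iCKO, while *Elovl6*, a fatty acid elongase, was at 5.79 and 5.58 FPKM and 6.33 and 9.42 FPKM, and *Acly*, which makes cytosolic acetyl-CoA, at 67.7 and 60.1 FPKM and 70.6 and 73.7 FPKM. Of 22 tested genes of sterol export, esterification and oxidation and of the LXR receptors, 0 passed after adjustment and 1 had an unadjusted p under 0.05, against 2.86% of all symbols, with a median of 0.14. In this list 6 genes were higher in both *Rax* iCKO libraries and 1 lower, against 15.4% and 14.1% of all symbols. The gene with the unadjusted p under 0.05 was *Nr1h3*, which encodes the sterol-activated receptor LXR-alpha, at 0.448 and 1.01 FPKM and 2.38 and 1.81 FPKM (log2 fold change 0.85 ± 0.32 SE; unadjusted p = 0.0382 and adjusted p = 0.9999, limma). The count of 1 depended on the settings: it was 0 with a pseudocount of 0.1, with a minimum of 5 FPKM and without *Rax* iCKO 7983, 3 without control 7984 (4.46% of all symbols) and 3 with the number run as a block (15.7%). *Abcg4*, a sterol exporter, was at 19.9 and 10.6 FPKM and 23.0 and 21.6 FPKM, and *Scarb1*, a lipoprotein receptor, at 126.0 and 101.5 FPKM and 100.1 and 86.1 FPKM. A difference between these lists and the 26 genes was not tested.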

How the data were processed

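The authors extracted RNA from mTFP-positive sorted cells, sequenced 101-base single-end reads, mapped them to mm10 with TopHat and Bowtie2 and deposited 1 file of FPKM values per gene and mouse from Cufflinks. The submitters' processing notes name TopHat2 2.1.1, Bowtie2 2.2.8, SAMtools 0.1.18 and Cuffdiff 2.2.1. The publication names other versions and another RNA extraction, so these steps are not settled here. It also names Cufflinks where the notes name Cuffdiff. The exact scaling of the FPKM, and the depths estimated from them, are therefore not settled either. FPKM are not counts and the files give no depth; mapped reads were estimated from the FPKM steps of 339 genes (effective length taken as 200 bases under transcript length), with quartiles of 8480000 to 9440000 for Rax iCKO 7983. Nothing in the labels describes strand.

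Symbols with a mean of at least 1 FPKM were tested on log2(FPKM + 1), which understates the change of low genes, with limma 3.58.1 (R 4.3.3; eBayes with trend), and p-values were adjusted by Benjamini-Hochberg over all of them. The study compared genes with an equal-variance test on the same mice; limma shares the variance over genes. Each mouse gave 1 library, so the tests measure the spread between these mice. Groups came from the genotype labels. Alternatives were a pseudocount of 0.1, a minimum of 5 FPKM, no minimum FPKM and no variance trend. Quantile normalization, equal medians, the number run as a block and leaving out each library were also tried. All 26 genes are named. From each other list, up to 2 genes with the largest rise and fall among those whose groups did not overlap are named. The members and lists were chosen with earlier results of these data known. Promoters came from RefSeq and gene positions and exon overlaps from GENCODE vM21. Some genes of sterol metabolism are not reported here.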

Additional observations from a re-analysis of the deposited data

How the results depend on the processing

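No result on the 26 genes passed an adjusted p of 0.05 in limma under any alternative tried, and a ratio of means over 1.5 or under its inverse, with no test, took in 2 genes (Msmo1 and Insig1; 9.37% of all symbols) where the test took in 0. At an unadjusted p under 0.05 the count was 0 as reported, 1 with equal medians (2.67% of all symbols), 5 (Msmo1, Nsdhl, Dhcr7, Insig1 and Srebf1) with the number run as a block, where 15.7% of all symbols reached it, and 0 to 2 with 1 library left out (1.04% to 4.46%). Those fits leave a genotype with 1 library, assumed to vary like the other group. In the block fit 71 symbols had an adjusted p under 0.05, none of them among the 26 (smallest 0.0694, Insig1), and Rax at -0.82 had an adjusted p of 0.0223. The run is only a shared start of the mouse number, and the labels tie no control mouse to a Rax iCKO mouse. Genes higher in both Rax iCKO libraries numbered 1 as reported, 0 after quantile normalization and 2 to 3 with 1 library left out, where 29.7% to 35.0% of all symbols were higher. Genes lower in both numbered 8 as reported and 12 to 18 with 1 library left out, where 29.1% to 35.3% of all symbols were lower, against 14.1% with all 4. The median deviation in Rax iCKO 7983 was 0.02 as reported, -0.032 after quantile normalization, -0.020 with equal medians, and -0.11 to 0.026 with 1 library left out, so its sign is not settled. Hmgcs1 was at 0.016 after quantile normalization, the 1 sign change among 78 fold changes under the 3 alternatives with all 4 libraries that can alter one (pseudocount, quantile normalization and equal medians). With 1 library left out, 87 of 104 kept their sign, and 14 of the 26 genes never changed sign. The others ranged from -0.16 to 0.12 (Hmgcs1), -0.21 to 0.052 (Mvd), -0.33 to 0.0076 (Idi1), -0.57 to 0.11 (Fdps), -0.33 to 0.10 (Tm7sf2), -0.37 to 0.14 (Ebp), -0.19 to 0.091 (Sc5d), -0.82 to 0.071 (Dhcr7), -0.78 to 0.20 (Srebf2), -0.21 to 0.0088 (Scap), -0.67 to 0.023 (Stard4) and -0.16 to 0.38 (Npc1). Those that kept their sign moved too, by over 1.5 times in places: Acat2 -0.40 to -0.12, Mvk -0.37 to -0.033, Pmvk -0.44 to -0.012, Lss 0.098 to 0.54, Msmo1 -1.14 to -0.30, Nsdhl -0.61 to -0.14, Hsd17b7 -0.51 to -0.12, Insig1 -1.15 to -0.25 and Insig2 0.040 to 0.32. The median fold change of the 26 genes stayed below 0 throughout, at -0.22 to -0.16 with 1 library left out. The cause of these differences was not tested. Depth is known only as an estimate and limits Stard4, Hsd17b7, Tm7sf2 and Lss, whose lowest values rested on about 60 to 180 reads.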
